A study of Arabidopsis thaliana with 9 samples.

Results

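A group of 9 genes that decide which epidermal cells of Arabidopsis thaliana become trichomes, the branched leaf hairs, was followed through RNA-seq libraries of whole shoots. They are GL1, MYB23, GL3, EGL3, TTG1, GL2, TRY, CPC and ETC1, picked by gene identifier for their known roles, and they make up 9 of the 33602 gene models counted. The 9 libraries came from above-ground parts of 21-day-old Col0 plants of 3 genotypes, CUC2gm-4, cuc2-3 and the wild type (WT), with 3 libraries each. All plants were untreated and were raised on soil with 8 h of light and 16 h of dark per day at 21 °C, and no treatment or allele is shared by all groups beyond the Col0 background. CUC2 is a NAC transcription factor of organ boundaries and leaf margins. The design text calls both mutants knock-outs and the labels do not describe the alleles further.

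Trichome spacing is a textbook case of patterning by activators and mobile inhibitors. An R2R3 MYB protein (GL1, or its relative MYB23) binds a bHLH protein (GL3 or EGL3) and the WD40-repeat protein TTG1. This complex switches on GL2, a homeodomain factor of trichome growth, and also small R3 MYB proteins (TRY, CPC, ETC1). The R3 MYB proteins move into neighbouring cells, take the place of GL1 on the bHLH protein and keep those cells from becoming trichomes. Many of these factors act again in the root epidermis, where they set the pattern of root hairs.

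The activating and inhibiting MYB proteins compete for the same bHLH partner, and the coding bases for the stretch that contacts it are shown because the competition rests on them. A pattern of conserved residues known for this contact (aspartate or glutamate and leucine at its start, further leucines and basic residues at fixed spacing) was found once in the coding sequence of each of the 5 MYB genes and in none of GL3, EGL3, TTG1 and GL2. The sequences below are from the TAIR10.1 reference (RefSeq), 60 bases each, 5′ to 3′ on the coding strand, and capitals mark the bases that all 5 genes share.
GL1: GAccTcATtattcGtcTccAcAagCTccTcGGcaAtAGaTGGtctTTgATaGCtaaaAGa
MYB23: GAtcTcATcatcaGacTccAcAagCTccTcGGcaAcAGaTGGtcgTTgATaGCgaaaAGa
TRY: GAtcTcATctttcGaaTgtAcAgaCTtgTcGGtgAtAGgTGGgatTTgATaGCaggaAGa
CPC: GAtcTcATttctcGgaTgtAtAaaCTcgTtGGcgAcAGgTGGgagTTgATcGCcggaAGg
ETC1: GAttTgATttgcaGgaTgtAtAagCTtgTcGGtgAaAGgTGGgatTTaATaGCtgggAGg
Of the 60 bases, 28 were common to all 5 genes. GL1 and MYB23 shared 52, TRY and CPC 47, and GL1 and CPC 38. Over the whole coding sequences the longest run of identical bases was 26 between GL1 and MYB23, 38 between GL3 and EGL3, 21 between TRY and CPC and 30 between TRY and TCL2, another R3 MYB gene. Reads that aligned equally well to more than a single model were removed before counting, so a read confined to such a run would have been lost from both genes.

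On TAIR10.1, GL1 (AT3G27920) lies on chromosome 3 from 10361790 to 10363607 and MYB23 (AT5G40330) on chromosome 5 from 16127725 to 16129661. GL3 (AT5G41315) lies on chromosome 5 from 16529090 to 16533287, EGL3 (AT1G63650) on chromosome 1 from 23599413 to 23603164, and TTG1 (AT5G24520) on chromosome 5 from 8370317 to 8372847. GL2 (AT1G79840) lies on chromosome 1 from 30036956 to 30041440. TRY (AT5G53200) lies on chromosome 5 from 21582614 to 21584243, CPC (AT2G46410) on chromosome 2 from 19049021 to 19050369 and ETC1 (AT1G01380) on chromosome 1 from 147043 to 148014. GL1, TTG1 and CPC are on the minus strand and the others on the plus strand. GL2, GL3 and ETC1 share exon bases with neighbouring genes, some on the opposite strand. The overlap is 2 bases for ETC1, 36 for GL3 and up to 198 with a single neighbour for GL2. The sources used here do not give the strand setting of the counting, so the counts of these 3 genes may hold reads of a neighbour, and how many was not tested.

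Each library held between 17361433 and 27734410 counts, so a count of 3, taken as the floor of detection, stood for 0.108 to 0.173 CPM, the count of a gene scaled to the total of its library. All 9 genes passed the minimum of 1 CPM in at least 3 libraries. Levels are given as normalised CPM, with library totals corrected by TMM factors. The labels do not say whether replicates came from separate plants, so the p-values speak of the spread among these libraries, which may be technical, and in whole shoots fewer cells of a type and less RNA per cell cannot be told apart. CUC2 had 2497 counts over the 3 CUC2gm-4 libraries, 72 over cuc2-3 and 121 over WT, which goes against the knock-out description of the libraries labelled CUC2gm-4. The tissue label held in the markers: RBCS1A, CAB2 and CA1, genes of photosynthesis, summed to 12343 to 33750 normalised CPM, and AP1 and AG, flower identity genes, reached at most 4 counts in a library. Of 6 root and root hair markers, RHD6, RSL4, EXPA7, COBL9 and PRP3 had at most 4 counts, and PYK10 alone was abundant, with 103 to 182 normalised CPM. WT 1 stood apart in STM, a gene of the shoot meristem, with 1.93 normalised CPM against 13.0 to 31.5 in the other 8 libraries. Values without WT 1 are given where a result rests on it.

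The genes differed widely in level. GL2 was the most abundant per length, with a median of 29.4 normalised CPM per kb of gene model over the 9 libraries (17.96 to 34.4). MYB23 followed with 21.2 (14.7 to 26.6) and TTG1 with 18.9 (15.8 to 23.4). GL1 was at 10.7 (8.40 to 15.6) and CPC at 9.28 (4.73 to 13.4). EGL3 was at 6.48 (4.52 to 7.64), ETC1 at 4.36 (2.74 to 6.70), TRY at 1.99 (1.06 to 3.28) and GL3 at 1.97 (1.36 to 2.65). Neighbours in this order were not all separable: GL2 lay above MYB23 in 8 of 9 libraries, MYB23 above TTG1 in 3, GL1 above CPC in 6 and TRY above GL3 in 5, while TTG1 lay above GL1 and ETC1 above TRY in 9 of 9. Within each protein class the order was firm, with MYB23 above GL1, EGL3 above GL3, and CPC above ETC1 above TRY in 9 of 9 libraries. The models of GL1 and GL3 in the files have the length of the coding sequence alone, whereas that of GL2 equals a full transcript, so values per kb across these genes carry that difference.

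**Figure D1:**
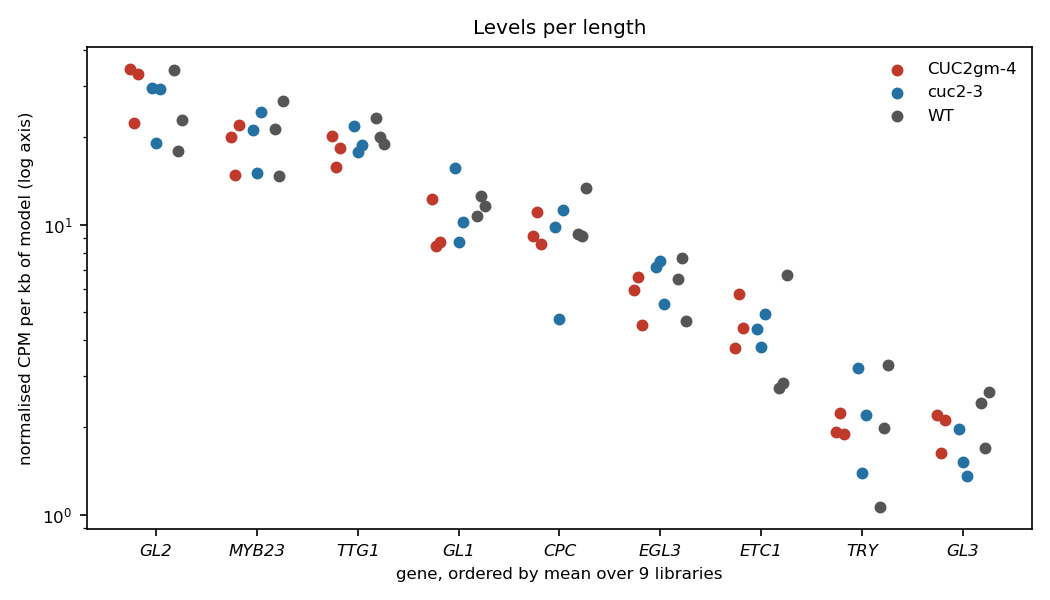
Normalised CPM per kb of gene model (log axis) for the 9 genes, ordered by their mean over 9 libraries, with a point for each library coloured by genotype. GL2 is at the top, with 17.96 to 34.4, and GL3 at the bottom, with 1.36 to 2.65, and within each gene the 3 genotypes overlap.

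GL1 encodes the R2R3 MYB protein that trichome initiation on leaves requires. It had 8.39, 5.77 and 5.97 normalised CPM in CUC2gm-4 1, 2 and 3, then 10.7, 5.97 and 6.99 in cuc2-3 and 7.35, 8.64 and 7.95 in WT. The 3 genotypes overlapped, and cuc2-3 1 held the highest value. On the log2 scale GL1 differed by -0.25 ± 0.25 (SE) between CUC2gm-4 and WT, by -0.01 ± 0.25 between cuc2-3 and WT and by -0.23 ± 0.25 between CUC2gm-4 and cuc2-3, and none of these passed the test described with the counts below. MYB23, a close relative that shares part of the role of GL1 and also acts in branching, had 19.5, 14.3 and 21.4 normalised CPM in CUC2gm-4, then 20.5, 14.7 and 23.8 in cuc2-3 and 20.8, 14.3 and 25.8 in WT. In each genotype the library numbered 2 was lowest and that numbered 3 highest, and the genotype means of 18.4 ± 3.66, 19.7 ± 4.64 and 20.3 ± 5.79 (SD, n = 3 each) differed by less than these spreads, with log2 fold changes of -0.14 for CUC2gm-4 and -0.04 for cuc2-3 against WT and -0.10 for CUC2gm-4 against cuc2-3 (SE 0.25 each). Per kb, MYB23 exceeded GL1 by a factor of 1.64, 1.76 and 2.54 in CUC2gm-4, 1.36, 1.74 and 2.41 in cuc2-3 and 1.997, 1.17 and 2.30 in WT.

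GL3 and EGL3 are the bHLH partners, and EGL3 also promotes anthocyanin synthesis. GL3 had 4.25, 3.14 and 4.09 normalised CPM in CUC2gm-4, then 3.81, 2.93 and 2.63 in cuc2-3 and 4.67, 3.29 and 5.11 in WT. It was lower in cuc2-3 than in the same-numbered WT library in 3 of 3 pairs, although the groups overlapped. Its log2 fold change of -0.48 (SE 0.27, 95% interval -1.07 to 0.10) for cuc2-3 against WT was the lowest of the 27 values (9 genes in 3 comparisons) and did not pass in edgeR's quasi-likelihood test (unadjusted p = 0.096, adjusted p = 1). In CUC2gm-4 GL3 differed by -0.19 ± 0.26 from WT and by 0.30 ± 0.26 from cuc2-3 on the log2 scale. EGL3 had 12.6, 13.99 and 9.57 normalised CPM in CUC2gm-4, then 15.1, 15.9 and 11.3 in cuc2-3 and 13.7, 16.2 and 9.85 in WT. The library numbered 3 was lowest and that numbered 2 highest in every genotype. The EGL3 values in CUC2gm-4 lay below both same-numbered libraries of the other genotypes in each case, with log2 fold changes of -0.13 (SE 0.23) against WT and -0.22 (SE 0.23) against cuc2-3. Per kb, EGL3 exceeded GL3 by a factor of 1.76 (WT 3) to 4.95 (cuc2-3 2).

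TTG1, the WD40 protein that also serves anthocyanin and seed coat development, was the steadiest of the 9 genes. It had 31.4, 24.6 and 28.6 normalised CPM in CUC2gm-4, then 34.1, 27.7 and 29.3 in cuc2-3 and 36.5, 31.3 and 29.5 in WT. The highest of the 9 values was 1.48 times the lowest. TTG1 was lower in CUC2gm-4 than in the same-numbered library of WT and of cuc2-3 in 3 of 3 pairs each, and lower in cuc2-3 than in WT in 3 of 3, while the ranges overlapped throughout. On the log2 scale TTG1 differed by -0.20 ± 0.16 (SE, 95% interval -0.55 to 0.15) between CUC2gm-4 and WT, by -0.09 ± 0.16 between cuc2-3 and WT and by -0.10 ± 0.16 between CUC2gm-4 and cuc2-3, and none of these passed.

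GL2 is the best known target of the activating complex. It had 99.5, 64.6 and 95.5 normalised CPM in CUC2gm-4, then 85.3, 55.2 and 85.03 in cuc2-3 and 98.4, 51.99 and 66.2 in WT. The library numbered 2 was lowest in every genotype, and the groups overlapped. CUC2gm-4 lay above the same-numbered library in 3 of 3 pairs with WT and in 3 of 3 pairs with cuc2-3, with log2 fold changes of 0.26 (SE 0.27, 95% interval -0.33 to 0.85) and 0.20 (SE 0.27, 95% interval -0.39 to 0.79). Neither passed in edgeR's quasi-likelihood test (adjusted p = 0.894 and 1), nor with the replicate number as a block (adjusted p = 0.522 and 0.821). With the block the value against WT was 0.28 (SE 0.15, 95% interval -0.05 to 0.61). Against cuc2-3 it was 0.20 (SE 0.15, 95% interval -0.13 to 0.53). In the fit without the block, the GL2 value against WT was 0.54 without WT 1 and 0.07 without WT 2. For cuc2-3 against WT the log2 fold change was 0.06 (SE 0.27).

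By highest over lowest value, the R3 MYB inhibitors TRY, CPC and ETC1 spread more across the libraries, with 2.44 to 3.08 times against 1.48 to 1.95 times for the other 6 genes. As SD over mean in the 9 libraries, CPC had 24.6%, near the 24.0% of GL2, while ETC1 had 29.7% and TRY 34.2%. ETC1 had 25 to 90 counts a library and TRY 11 to 50, and the part of counting noise was not tested. CPC, named for its role in root hairs, had 5.34, 6.47 and 4.99 normalised CPM in CUC2gm-4, then 5.73, 2.76 and 6.53 in cuc2-3 and 5.42, 5.35 and 7.82 in WT. The lowest value was that of cuc2-3 2, and the groups overlapped. On the log2 scale CPC differed by -0.30 ± 0.31 (SE) between cuc2-3 and WT with all libraries and by -0.02 without cuc2-3 2. ETC1, an inhibitor alongside TRY and CPC, had 2.13, 3.29 and 2.50 normalised CPM in CUC2gm-4, then 2.48, 2.14 and 2.80 in cuc2-3 and 1.56, 1.62 and 3.804 in WT. WT 3 lay above every mutant library and the other WT libraries below them. The ETC1 log2 fold changes were 0.16 for CUC2gm-4 and 0.08 for cuc2-3 against WT (SE 0.37 each). TRY, the inhibitor whose loss gives clustered trichomes, rested on 31, 29 and 30 counts in CUC2gm-4, 45, 16 and 40 in cuc2-3 and 11, 23 and 50 in WT. These are 1.24, 1.44 and 1.23 normalised CPM in CUC2gm-4, against 2.06, 0.902 and 1.42 in cuc2-3 and 0.685, 1.28 and 2.11 in WT. Its SD was 0.120 in CUC2gm-4, against 0.582 in cuc2-3 and 0.717 in WT, with 3 libraries each, and no test of spread was made. On the log2 scale TRY differed by -0.09 ± 0.44 (SE) between CUC2gm-4 and WT, by 0.09 ± 0.44 between cuc2-3 and WT and by -0.17 ± 0.43 between CUC2gm-4 and cuc2-3. It was the least precisely measured of the 9 genes.

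Summed per kb, the inhibitors TRY, CPC and ETC1 stood to the activators GL1 and MYB23 at 0.459, 0.825 and 0.482 in CUC2gm-4, at 0.472, 0.416 and 0.528 in cuc2-3 and at 0.408, 0.513 and 0.612 in WT. CUC2gm-4 2 held the highest ratio and WT 1 the lowest, and the genotypes overlapped. These ratios are of transcript levels and are given as a description, with no test.

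**Figure D2:**
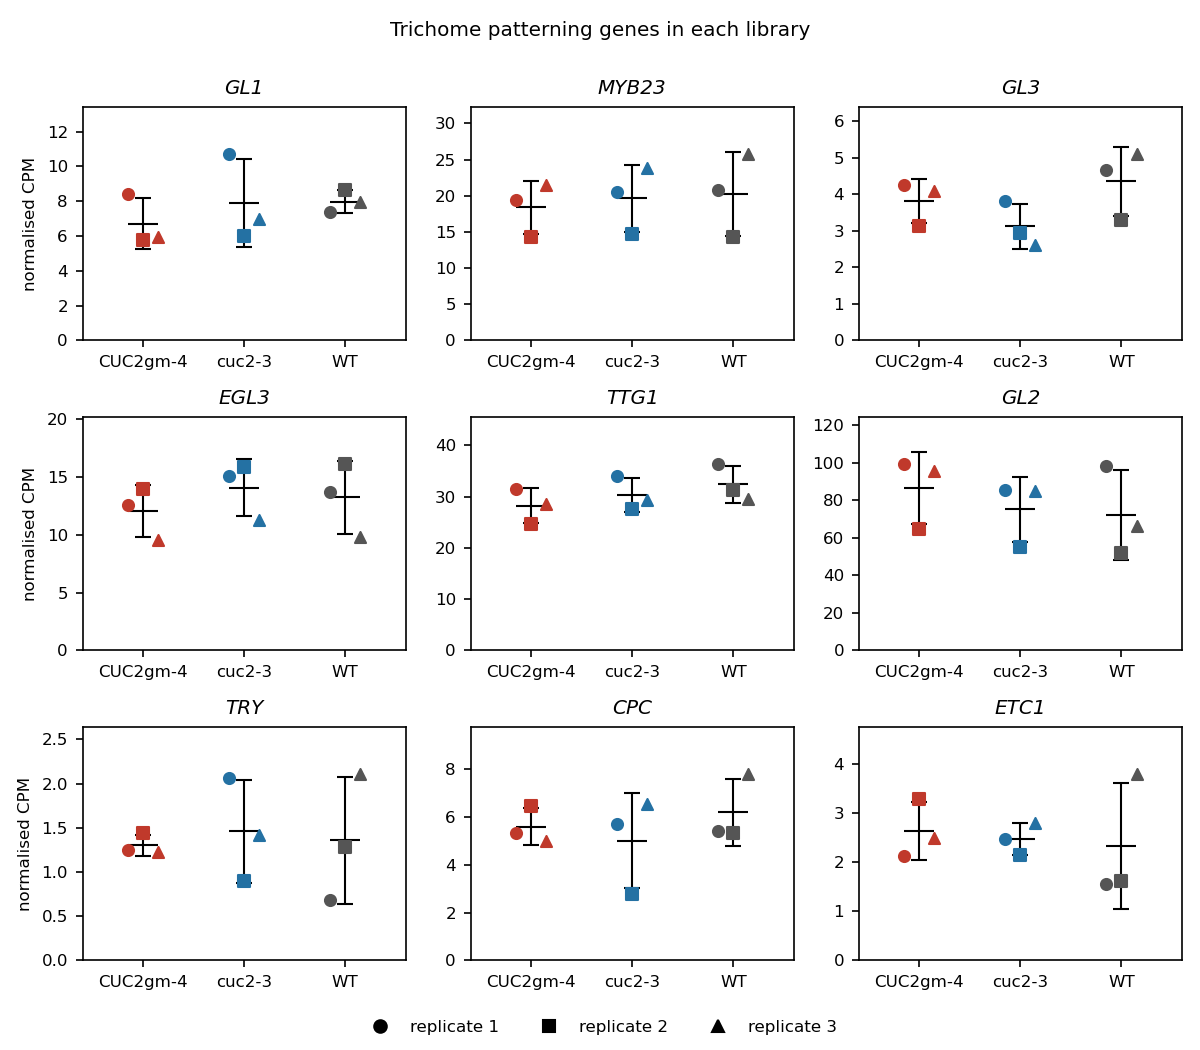
Normalised CPM (y axis, from 0) of the 9 genes in CUC2gm-4, cuc2-3 and WT, with a symbol for each replicate number and bars for the mean and SD of 3 libraries. The genotypes overlap in every panel, and in MYB23, EGL3 and GL2 the symbols keep a like order across genotypes.

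Set against all genes, the 9 genes gave no call in any comparison of genotypes. With edgeR's quasi-likelihood test and an adjusted p (Benjamini-Hochberg, over all genes tested) below 0.05, 0 of 9 passed for cuc2-3 against WT, where 0.0219% of the 18291 genes tested did. For CUC2gm-4 against WT 0 of 9 passed, beside 0.0164% of all genes, and for CUC2gm-4 against cuc2-3 0 of 9 passed, again beside 0.0164%. With the replicate number as a block the shares of all genes called were 0.0219%, 0.191% and 0.0383%, and with DESeq2 0.0765%, 0.443% and 0.137%, with 0 of 9 members in each. An unadjusted p below 0.05 was reached by 0 of the 27 values, without and with the block, beside 1.96%, 6.48% and 3.73% of all genes without it and 3.73%, 10.9% and 7.39% with it. Since the 3 comparisons share libraries, their values are not independent of each other.

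The intervals, from the fit without the replicate block, set bounds on the differences. The log2 fold changes ran from -0.48 to 0.30. Of the 27 values, 23 had a 95% interval that stayed within a fold of 2 in both directions, and the other 4 were TRY in all 3 comparisons and GL3 in cuc2-3 against WT. With the replicate number as a block, the SE in CUC2gm-4 against WT fell from 0.25 to 0.14 for MYB23. It fell from 0.23 to 0.14 for EGL3 and from 0.27 to 0.15 for GL2. The SE fell by less for GL1, GL3, TTG1, CPC and ETC1 and stayed at 0.44 for TRY. For cuc2-3 against WT 4 of 9 genes had positive values with a median of -0.01, against 48.3% of all genes and a median of -0.01. For CUC2gm-4 against WT 2 of 9 were positive, GL2 and ETC1, with a median of -0.14, against 49.6% of all genes and a median of -0.00. For CUC2gm-4 against cuc2-3 4 of 9 were positive, with a median of -0.10, against 50.1% and a median of 0.00. In same-numbered pairs, 3 genes (GL3, EGL3 and TTG1) were lower and GL2 higher in CUC2gm-4 than in WT in 3 of 3, beside 16.0% of all genes lower and 17.2% higher. Against cuc2-3, GL1, MYB23, EGL3 and TTG1 were lower and GL3 and GL2 higher in 3 of 3, beside 15.2% and 13.9% of all genes. For cuc2-3 against WT GL3 and TTG1 were lower in 3 of 3, beside 11.1% of all genes, and 0 were higher in 3 of 3, beside 10.3%. In 0 of the 27 cases did the libraries of both genotypes lie apart, beside 2.87% of all genes higher and 2.65% lower in cuc2-3 against WT, 5.87% and 5.74% in CUC2gm-4 against WT, and 4.82% and 5.19% in CUC2gm-4 against cuc2-3.

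**Figure D3:**
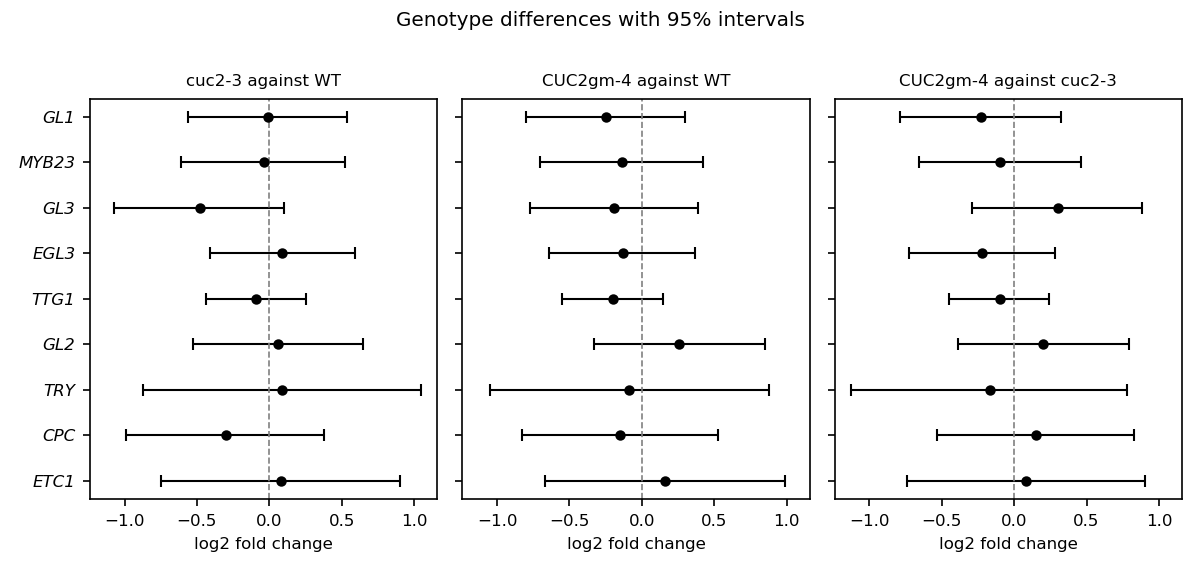
Log2 fold changes of the 9 genes in the 3 comparisons (x axis), with 95% intervals from edgeR's quasi-likelihood fit; the dashed line marks no difference. Every interval crosses the line, and those of TRY are the widest, reaching -1.13 in CUC2gm-4 against cuc2-3.

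The replicate number, which the 3 genotypes share in the labels, was tested as well, a test chosen after the values were seen. In the fit with genotype and replicate number, 2 of the 9 genes differed by number: MYB23 (adjusted p = 0.0346) and GL2 (adjusted p = 0.0437), beside 4.36% of all genes. EGL3 came next with an adjusted p of 0.0716 in edgeR's quasi-likelihood test, and 0.0485 with DESeq2. MYB23 was 1.64 times as high in libraries numbered 3 as in those numbered 2, and GL2 1.43 times, while EGL3 was at 0.666 times. For MYB23 the libraries numbered 2 held 14.3 to 14.7 normalised CPM in all genotypes and those numbered 3 held 21.4 to 25.8. Such an order in all 3 genotypes was not rare: 5.79% of all genes were lowest in the libraries numbered 2, as MYB23 and GL2 were, 11.6% highest in those numbered 3, as MYB23 was, and 10.1% highest in those numbered 1, as GL2 and TTG1 were. For EGL3 the shares were 8.98% lowest in those numbered 3 and 4.73% highest in those numbered 2. The other 6 genes had adjusted p-values from 0.324 (TTG1) to 0.825 (TRY). MYB23 and GL2 were each called in 6 of 13 alternatives. These included the alternatives with all libraries (other scalings, no count minimum and DESeq2). The 2 calls were fragile when a library was left out. None was left without CUC2gm-4 1, CUC2gm-4 2, cuc2-3 2, cuc2-3 3, WT 1 or WT 2. MYB23 alone was left without CUC2gm-4 3, GL2 alone without WT 3, and both without cuc2-3 1. Adjusted p-values over 13 alternatives ran from 0.0106 to 0.128 for MYB23, 0.00274 to 0.146 for GL2 and 0.0485 to 0.22 for EGL3.

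**Figure D4:**
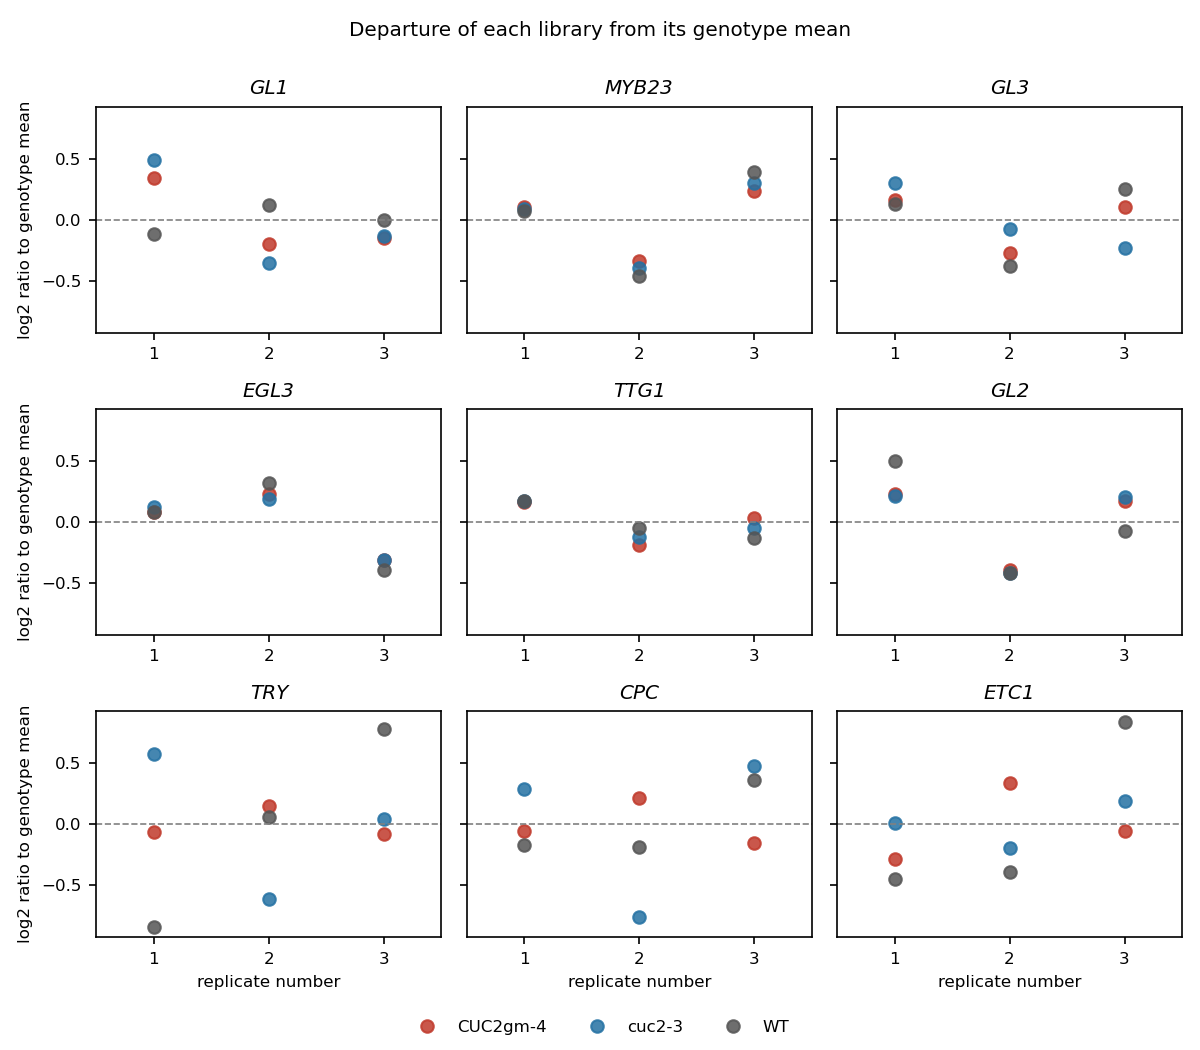
Log2 ratio of each library to its genotype's mean log2 level (y axis) by replicate number (x axis), with a point for each genotype. In MYB23, EGL3 and GL2 the points of the 3 genotypes lie near each other at each number, whereas in TRY, CPC and ETC1 they scatter.

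Levels of marker genes are given by replicate number as a description, with no test. The epidermis markers ATML1, PDF2, PDF1 and KCS10 summed to 1934, 1018 and 1390 normalised CPM in CUC2gm-4 1, 2 and 3, to 1580, 1182 and 1257 in cuc2-3 and to 1800, 1270 and 1117 in WT. This sum was highest in the libraries numbered 1, as GL2 was, but its members went different ways in cuc2-3. PDF1 and KCS10 were highest in those numbered 1 in all 3 genotypes, and ATML1 and PDF2 in CUC2gm-4 and WT. In cuc2-3 1, 2 and 3, however, ATML1 had 151.7, 167.6 and 176.4 normalised CPM, and PDF2 had 165.6, 168.7 and 164.0. The photosynthesis markers summed to 19496, 12343 and 14893 in CUC2gm-4, 25357, 21791 and 17113 in cuc2-3 and 33750, 18450 and 15672 in WT, with all 3 genes highest in those numbered 1. Markers of young and dividing tissue (STM, CYCB1;1, GRF2 and AN3) summed to 132.0, 131.6 and 146 in CUC2gm-4, 112, 133 and 134 in cuc2-3 and 101, 135 and 153 in WT. Within them GRF2 was highest in the libraries numbered 1 in all 3 genotypes, and AN3 in those numbered 3. STM was lowest in those numbered 1 in all 3 genotypes. It had 13.0, 28.5 and 31.5 normalised CPM in CUC2gm-4, 14.3, 19.3 and 19.4 in cuc2-3 and 1.93, 19.2 and 20.3 in WT. CYCB1;1 kept no such order across genotypes. The libraries numbered 2 had the lowest total counts of each genotype. The part of cell makeup or depth in the differences of MYB23, GL2 and EGL3 was not tested.

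The rest of the trichome pathway gave no call between genotypes either. Of 27 other trichome genes, 23 passed the count minimum, and 0 passed the test in each of the 3 comparisons, also with the block and with DESeq2. Of the 27, WER, the MYB gene of the root epidermis, GIS2, ZFP6 and NTL8 stayed below the minimum. In CUC2gm-4 against WT 16 of 23 were positive with a median of 0.17, against 49.6% of all genes and a median of -0.00. In CUC2gm-4 against cuc2-3 16 of 23 were positive too, with a median of 0.11, against 50.1% and a median of 0.00. For cuc2-3 against WT it was 13 of 23 with a median of 0.07, against 48.3% and a median of -0.01. In CUC2gm-4 against WT 0 of 3 photosynthesis markers were positive (median -0.55). Without WT 1 RBCS1A moved from -0.61 to -0.23, CA1 from -0.55 to -0.18 and CAB2 from -0.43 to -0.02. Without CUC2gm-4 1 RBCS1A was at -0.87, and without WT 3 CA1 was at -0.75 and CAB2 at -0.61. Against cuc2-3, 0 of 3 were positive as well, with RBCS1A at -0.48 ± 0.34, CAB2 at -0.40 ± 0.27 and CA1 at -0.73 ± 0.29. There the groups of CAB2 and CA1 did not overlap, beside 5.19% of all genes lower. None of the 3 markers passed in either comparison. Against WT, PYK10 stood at -0.51 ± 0.18 with groups that did not overlap (unadjusted p = 0.0173, adjusted p = 0.742 in edgeR's quasi-likelihood test). The young tissue markers had 3 of 4 positive (median 0.20), with STM at 0.81 ± 0.61, or 0.30 without WT 1. The epidermis markers had 4 of 4 positive with a median of 0.05. The part of these in the values of the trichome genes was not tested. Without the replicate block the smallest p-values in CUC2gm-4 against WT were those of HDG2 and HDG11, homeodomain factors of the epidermis. HDG2 had 52.5, 53.2 and 52.9 normalised CPM in CUC2gm-4 against 46.0, 40.6 and 38.3 in WT, groups that did not overlap. They differed by 0.34 ± 0.15 on the log2 scale, with an unadjusted p of 0.0487 and an adjusted p of 0.766 in edgeR's quasi-likelihood test. The groups of STI (higher in CUC2gm-4) and GIS (lower) did not overlap either, beside 5.87% of all genes higher and 5.74% lower. HDG11 had 18.4, 14.2 and 15.6 normalised CPM in CUC2gm-4 against 15.3, 11.8 and 7.74 in WT, a difference of 0.47 ± 0.23 on the log2 scale (adjusted p = 0.79). Without WT 3 the HDG11 difference was 0.24. With the replicate block in edgeR the smallest were those of SPL9 (log2 fold change 0.40, adjusted p = 0.367) and HDG11 (0.50, adjusted p = 0.377). ZFP8, which was lower in CUC2gm-4 (-0.35, adjusted p = 0.421), came next and HDG2 (0.35, adjusted p = 0.435) after it.

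In cuc2-3 against WT the smallest p-values were those of TCL1, a further R3 MYB inhibitor, with 18, 7 and 12 counts in cuc2-3 and 11, 25 and 19 in WT (-0.80 ± 0.49 on the log2 scale, adjusted p = 1), and STI, a gene of trichome branching (0.25 ± 0.19, adjusted p = 1). In CUC2gm-4 against cuc2-3 they were those of GIS, a zinc finger factor of inflorescence trichomes, with 5.18, 4.73 and 3.84 normalised CPM in CUC2gm-4 against 7.52, 6.99 and 4.51 in cuc2-3 (-0.46 ± 0.24, adjusted p = 1), and TCL1 (0.87 ± 0.48, adjusted p = 1). By group, 0 of 4 other R3 MYB genes, 0 of 3 MYB and bHLH partners, 0 of 4 zinc finger genes, 0 of 5 differentiation factors and 0 of 7 genes of endoreduplication, branching and turnover passed in each comparison. By replicate number 1 of the 23 passed, beside 4.36% of all genes, so the count is near the share of all genes. It was TCL2 (adjusted p = 0.0199 in edgeR's quasi-likelihood test), with 6.82, 4.98 and 2.33 normalised CPM in CUC2gm-4, 5.82, 3.49 and 2.59 in cuc2-3 and 7.97, 6.74 and 2.33 in WT. The TCL2 call was lost without CUC2gm-4 1, CUC2gm-4 3 or WT 3, and its adjusted p reached 0.0747 over the alternatives.

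Genes with the most similar profile were sought by the root-mean-square difference of centred log2 normalised CPM over the 9 libraries. The nearest to GL2 was SUVH5 (0.111), a histone methyltransferase gene, beside the SD of GL2 itself of 0.34. The nearest to EGL3 was ECT4 (0.0737), to GL1 TTN9 (0.0999), to TRY BRXL1 (0.167) and to ETC1 NF-YB8 (0.128). MYB23, TTG1, GL3 and CPC lay nearest to AT5G63620 (0.0934), AT3G06950 (0.0523), the transcribed pseudogene AT2G38980 (0.125) and the long non-coding RNA AT2G19572 (0.13). None of these is a trichome gene of the lists, and they were picked from 18291 genes, so a near match is a description of these libraries.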

How the data were processed

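Per the labels, messenger RNA was made into stranded single-end libraries for the Ion Torrent Proton. Per the file headers, the authors deposited whole-number read counts per gene model from sam2pkm, after removing reads whose best and second-best alignments scored alike. TAIR10 is the build named in the submitters' processing notes, and neither the aligner nor the strand setting is given there. Positions and sequences were taken by gene identifier from TAIR10.1, not from coordinates of the files. Counts were tested with edgeR 4.0.16 in R 4.3.3 (genes at 1 CPM or more in at least 3 libraries, TMM, quasi-likelihood, genotype as the factor, all 9 libraries, Benjamini-Hochberg at 0.05 over 18291 genes); DESeq2 1.42.0 was an alternative. The procedure was checked on simulated counts. Libraries of different genotypes with the same number tended to deviate together (r of 0.198 to 0.586 in 9 pairs, against -0.477 to 0.188 in 18 pairs with other numbers). Deviations from a genotype mean cancel out, so positive values in same-numbered pairs push the others down. The ranges nearly touch, and the labels do not say that the numbers pair the libraries. A fit with the number as a block was therefore run as an alternative. Fold changes, SE and intervals are from the fit without the block unless said otherwise. The members and lists were chosen with earlier results of these data known; the 2 genes with the smallest p of the other lists were named in each comparison, and TCL2, SPL9 and ZFP8 after their values were seen. Values of a further gene are not reported here.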

Additional observations from a re-analysis of the deposited data

How the results depend on the processing

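Of the 9 genes, 0 passed the test between genotypes under every alternative tried: other scalings (RLE, library totals), no count minimum, DESeq2, the replicate number as a block, 2 genotypes only, and each library left out in turn. Of their 27 log2 fold changes, 11 kept their sign throughout and 16 changed it in some fit without a library, while 0 changed it under another alternative. For cuc2-3 against WT, the ranges without a library were -0.31 to 0.15 for GL1, -0.24 to 0.17 for MYB23, -0.10 to 0.26 for EGL3, -0.13 to 0.34 for GL2, -0.25 to 0.56 for TRY and -0.15 to 0.63 for ETC1. For CUC2gm-4 against WT they were -0.34 to 0.07 for MYB23, -0.31 to 0.04 for EGL3, -0.40 to 0.39 for TRY, -0.27 to 0.05 for CPC and -0.06 to 0.72 for ETC1. For CUC2gm-4 against cuc2-3 they were -0.43 to 0.05 for GL1, -0.27 to 0.06 for MYB23, -0.41 to 0.16 for TRY, -0.13 to 0.39 for CPC and -0.10 to 0.22 for ETC1.

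Counts over all genes depended more on the method. For cuc2-3 against WT 4 genes were called, 14 with DESeq2. For CUC2gm-4 against WT the 3 calls became 9 with no count minimum, 81 with DESeq2, 35 with the replicate block, 6 with 2 genotypes only, and 2 to 8 without a library (8 without cuc2-3 3). For CUC2gm-4 against cuc2-3 the 3 calls became 25 with DESeq2 and 7 with the block; the block changed no call of a member. By replicate number 797 genes were called, 3026 with no count minimum, 2017 with DESeq2 and 195 (without cuc2-3 3) to 1261 (without cuc2-3 1) without a library. Of the 9 genes 2 were called by number, 3 with DESeq2 and 0 to 2 without a library; of the other trichome genes 1, or 4 with no count minimum, 2 with DESeq2 and 0 to 2 without a library. The causes were not tested. Depth limits TRY most, with 11 to 50 counts a library. With library totals the median log2 fold change of all genes was 0.000 for cuc2-3 against WT and 0.083 for CUC2gm-4 against WT. It was 0.079 for CUC2gm-4 against cuc2-3.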
